A study of Rattus norvegicus with 4 samples.

Results

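Complement components and regulators are the secreted proteases, cofactors and membrane proteins that tag a surface for removal, or protect a cell from that. Of 9 genes named for this group (C1s, C1r, C1qa, C2, C3, Cfi, Serping1, Cd55 and Cd59), 8 had a probe set of their own, 9 probe sets of 31042 in all. Every probe set was taken whose only gene symbol in the platform annotation, brought up to date through RefSeq, was one of these names. Cd59 was matched to Cd59b, for which the RefSeq gene table gives Cd59 as a synonym. C2 shares its probe sets with its neighbour Cfb. The genes were picked with earlier results of the same cAMP and control arrays known, so their differences are given as a description, and the share of them that passed a threshold supports nothing.

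The arrays compare Sertoli cells, the epithelial support cells that line the seminiferous tubules of the testis, kept for 72 h in serum-free medium with cAMP, on 2 arrays, or without treatment, on 2 arrays. Both groups came from the testes of male Sprague-Dawley rats aged 20 days, and cells of both were held at 32 degrees C. cAMP carries the signal of follicle-stimulating hormone inside Sertoli cells; the labels give neither its form nor its dose. The labels call the arrays of a group biological replicates without naming separate cell preparations. An SD covers only the spread between these arrays, which may be partly technical. Each SE is from limma, which also draws on the spread of other probe sets of like intensity. It can thus be smaller or larger than the spread of the gene's own arrays would give.

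Complement can be started by C1, in which the recognition protein C1q carries the proteases C1r and C1s. C1r activates C1s, C1s cleaves C4 and C2, and the products cleave C3, on which all routes converge. C1 inhibitor (Serping1) blocks C1r and C1s, factor I (Cfi) inactivates cleaved C3 and C4, and Cd55 and Cd59 protect a cell's own membrane, Cd55 by taking apart the enzymes that cleave C3 and Cd59 by stopping the membrane attack complex. The liver makes most of these proteins, macrophages are a main source of C1q, and many other cells make C1r and C1s locally. In the testis, membrane regulators are known from germ cells and sperm.

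The promoters of a member that rose and of a member with lower signals in cAMP cells are shown because the study is about cAMP and about basic helix-loop-helix factors, which bind the E-box CANNTG. They are the 250 bases before the annotated start in RefSeq, build GRCr8, 5′ to 3′ on the gene's strand. Capitals mark E-boxes and the short form of the cAMP response element, TGACG.
C1r (chr4:159098763-159099012, plus strand): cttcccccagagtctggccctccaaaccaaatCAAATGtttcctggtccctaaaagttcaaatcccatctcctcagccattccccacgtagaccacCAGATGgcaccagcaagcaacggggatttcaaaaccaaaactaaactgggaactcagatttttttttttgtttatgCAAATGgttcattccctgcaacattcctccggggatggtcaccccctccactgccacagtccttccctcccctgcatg
Cd55 (chr13:44438102-44438351, minus strand): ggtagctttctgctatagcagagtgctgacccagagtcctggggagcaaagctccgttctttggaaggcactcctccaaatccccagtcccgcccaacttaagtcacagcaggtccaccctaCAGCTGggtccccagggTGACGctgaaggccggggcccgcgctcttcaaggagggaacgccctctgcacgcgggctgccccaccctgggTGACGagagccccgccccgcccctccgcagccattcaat
The window of C1r holds 3 E-boxes and no TGACG on either strand, while that of Cd55 holds 1 E-box and 2 copies of TGACG. Of all 33469 promoters in the table, 65.5% hold an E-box, 18.2% hold TGACG on either strand and 1.59% hold the full element TGACGTCA, of which the short form is a part. C1s, C2, Serping1 and Cd59 had no entry there, and only the first entry of a member was searched. The full element was in none of the 5 members with an entry, C1r, C1qa, C3, Cfi and Cd55. C1qa was the only other of these 5 with TGACG, in 1 copy. CCAAT, held by 34.0% of all promoters on either strand, and TATAAA (12.9%) were in none of the 5, and TTCNNNGAA, the form bound by STAT factors (7.67%), was in C1qa only. A loose form of the C/EBP site, TTNNGNAA (37.2%), was in C1r and C3, and a loose form of the NF-kappaB site (42.3%) was in C1r, C1qa, C3 and Cd55. A match of letters is a description and not a bound site, and its absence concerns these 250 bases alone.

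C1s and C1r, the protease genes of C1, were both higher in cAMP cells. The signal of C1s was 842.1 and 1790 on the cAMP arrays, against 74.1 and 28.5 on the control arrays. The groups did not overlap, and the lower cAMP array lay far above the higher control array. The mean signal was 1316 ± 670 in cAMP cells and 51.3 ± 32.2 in control cells (SD, n = 2 arrays each), a ratio of 25.7. On the log2(signal + 16) scale, which understates the change of dim genes, the difference of cAMP minus control was 4.30 ± 0.41 (SE). Its adjusted p was 0.000845 by limma with Benjamini-Hochberg adjustment over all 18625 probe sets tested. This was the 15th highest difference of these.

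C1r, whose product cuts and activates C1s, had signals of 676.9 and 1301 on the cAMP arrays, against 310.1 and 122.6 on the control arrays. Again the groups did not overlap, and C1r lay well above background on all 4 arrays. The mean was 989 ± 441 in cAMP cells and 216 ± 133 in control cells (SD, n = 2 each), a ratio of 4.57. The log2 difference was 2.17 ± 0.43 (SE), with an adjusted p of 0.0165 by limma, the 165th highest of 18625. It changed with the arrays used. Without cAMP replicate 2 the difference was 1.70 and the adjusted p by limma 0.111. Each fit without an array leaves 1 array in that group, which is assumed to vary like the arrays of the other group. Leaving out control replicate 1 gave 2.79 and leaving out control replicate 2 gave 1.55, and C1r passed in both cases. With dim probe sets kept in the test the adjusted p of C1r by limma was 0.0615, while C1s passed under all 11 alternatives, with log2 differences between 3.52 and 4.83. In bulk RNA of this kind, more cells that express a gene and more RNA per cell cannot be told apart.

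**Figure D1:**
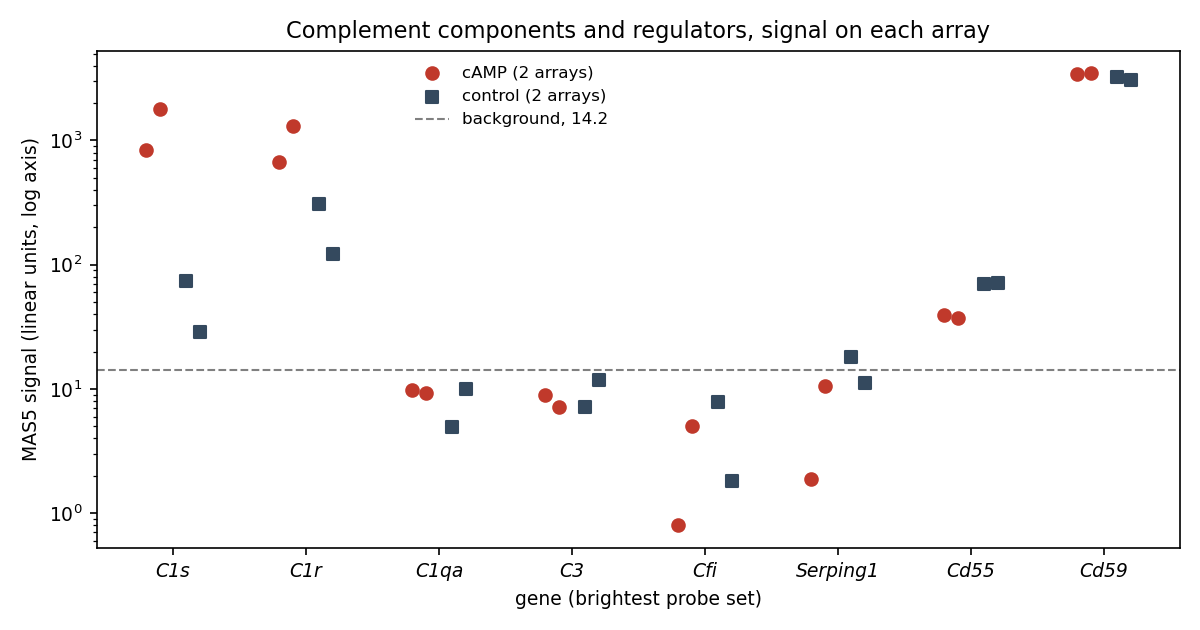
MAS5 signal (linear units on a log axis) of the 8 members on each of the 2 cAMP arrays (circles, left) and 2 control arrays (squares, right), with the background of 14.2 as a dashed line. C1s and C1r stand higher on the cAMP arrays, Cd59 lies between 3053 and 3472 on all 4 arrays, and C1qa, C3 and Cfi lie below the line throughout.

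The pair also varied together between arrays of the same group. C1s was 2.13 times and C1r 1.92 times as high on cAMP replicate 2 as on cAMP replicate 1. C1s was 2.60 times and C1r 2.53 times as high on control replicate 1 as on control replicate 2. So the array that was high for C1s within its group was also high for C1r. On the log2(signal + 16) scale, only 4 of the 18625 probe sets, 0.0215%, had gaps at least as large as the smaller of theirs in both groups and in the same direction. The other 2 were those of Mllt1 and Rassf4, which did not pass the threshold. A gap as large was found in 0.601% of the probe sets for the cAMP arrays alone and in 0.983% for the control arrays alone. These shares describe 4 arrays, and the limit was set by C1r and C1s themselves. RNA that is less intact gives more signal at the 3′ than at the 5′ end of actin, and that ratio was 1.86 and 1.65 on cAMP replicates 1 and 2, against 1.80 and 2.25 on control replicates 1 and 2. In each group the array with the lower ratio had the higher C1s and C1r, and the part of RNA quality in these values was not tested.

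**Figure D2:**
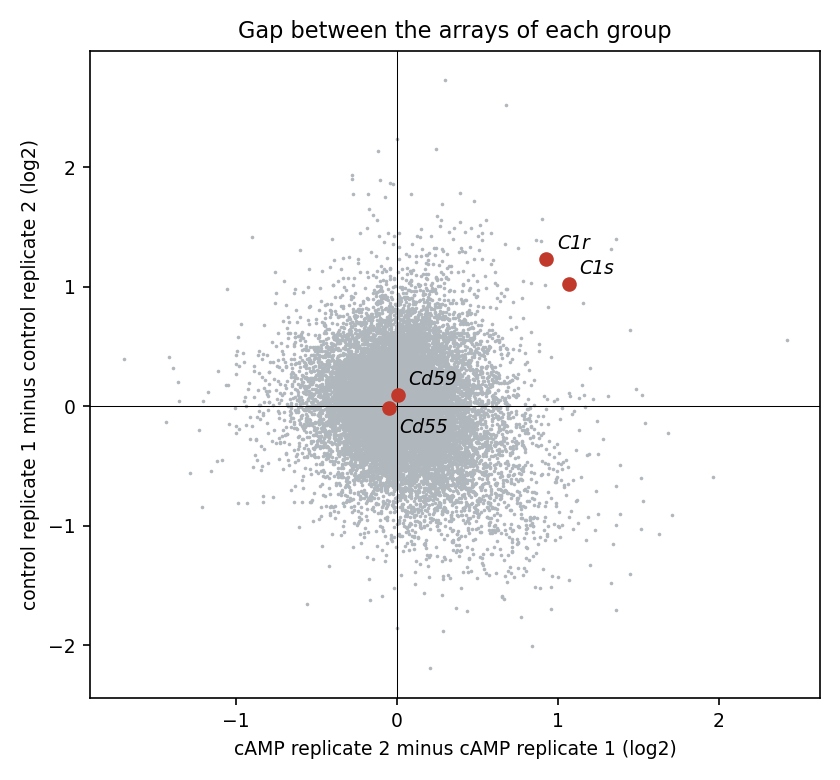
Gap between the arrays of a group on the log2(signal + 16) scale for the 18625 tested probe sets (grey) and the 4 tested members (red), with cAMP replicate 2 minus cAMP replicate 1 on the x axis and control replicate 1 minus control replicate 2 on the y axis. C1s and C1r lie together in the sparse upper right corner, and Cd55 and Cd59 lie near 0 on both axes.

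Set against C1r on the same array, C1s still differed between the groups. The log2 value of C1s minus that of C1r was 0.31 and 0.46 on the cAMP arrays, against -1.86 and -1.64 on the control arrays. The mean was 0.38 ± 0.10 in cAMP cells and -1.75 ± 0.15 in control cells (SD, n = 2 each), so the difference of C1s exceeded that of C1r by 2.13 on the log2 scale. It exceeded it by 2.45 with a pseudocount of 1. The arrays of a group lay much closer together on this measure than on either gene alone. With 2 arrays per group no permutation test can reach the threshold, and none was run.

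C1qa, which encodes a chain of the recognition protein C1q, was not above background, taken as 14.2, the highest signal of 27 probe sets for bacterial control transcripts. Its signals were 9.9 and 9.2 on the cAMP arrays, against 4.9 and 10 on the control arrays, and the groups overlapped. The genes of the other C1q chains, C1qb and C1qc, were likewise below background on all 4 arrays, with signals from 0.6 to 4.4. So signals above background were seen for the protease genes of C1 and for none of the 3 chains of its recognition protein.

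The substrates of C1s could be measured only in part. C4a and C4b, nearly identical genes for C4, share 1 probe set, which had signals of 138 and 105.7 on the cAMP arrays, against 14.4 and 21.5 on the control arrays. The groups did not overlap, and both control values lay just above background. The log2 difference was 2.02 ± 0.22 (SE), with an adjusted p of 0.00149 by limma, and it passed under all 11 alternatives. Which of these genes the signal comes from was not resolved, and the probe set was singled out after its values were seen. The probe sets shared by C2 and Cfb, the protease subunits of the classical and the alternative C3 convertase, numbered 4. The only one of them above the filter on dim probe sets had 52.1 and 46.3 on the cAMP arrays, against 34.4 and 19.3 on the control arrays. Its log2 difference of 0.63 ± 0.24 did not pass (adjusted p by limma = 0.137). The other 3 had signals between 6.8 and 21.9.

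C3, the central component of all routes, was below background on every array, at 9.0 and 7.2 in cAMP cells, against 7.1 and 11.8 in control cells. Cfi, the protease that inactivates cleaved C3 and C4, was also below it, at 0.8 and 5.0 in cAMP cells, against 7.8 and 1.8 in control cells. For both genes the groups overlapped. Serping1, the inhibitor of C1r and C1s, had signals of 1.9 and 10.5 on the cAMP arrays, against 18.0 and 11.2 on the control arrays, and only control replicate 1 was above background. No fold is given for these genes. When dim probe sets were kept in the test, C1qa, C3, Cfi and Serping1 did not pass, with adjusted p by limma between 0.382 and 0.882. A probe set below background gives only an upper limit on its transcript.

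The membrane regulators were measured in both groups. Cd55, which takes apart the C3 convertases, had signals of 39.4 and 37.6 on the cAMP arrays, against 70.3 and 71.5 on the control arrays. The groups did not overlap, and the arrays within each group were close. The mean was 38.5 ± 1.27 in cAMP cells and 70.9 ± 0.85 in control cells (SD, n = 2 each), a ratio of 0.543. The log2 difference of -0.67 ± 0.19 (SE) did not pass, with an adjusted p of 0.0575 by limma. It passed only without the intensity trend in the variance model, with an adjusted p of 0.0442. A second probe set of Cd55 was dimmer, at 21.8 and 8.8 in cAMP cells, against 24.9 and 18.2 in control cells, and lay below the filter on dim probe sets.

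Cd59, the inhibitor of the membrane attack complex, was high on all 4 arrays, at 3451 and 3472 in cAMP cells, against 3241 and 3053 in control cells. Both cAMP arrays were above both control arrays, by a small margin. The log2 difference was 0.14 ± 0.11 (SE, adjusted p by limma = 0.449). Its standard error was among the smallest of all probe sets tested. Those of C1r and C1s were among the largest, at ranks 125 and 152 of 18625 from the highest. Of 7 germ cell markers 3 had a probe set, with a summed signal of 2957 and 2215 on the cAMP arrays, against 3051 and 2913 on the control arrays. The part of germ cells in the signals of Cd55 and Cd59 was not tested.

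Of the 8 members with a probe set, 4 were bright enough to be tested, and of these 2 were higher in cAMP cells, 0 lower, and 2 did not pass. At an unadjusted p under 0.05 by limma, 2 were higher and 1, Cd55, was lower, where all probe sets tested gave 13.9% and 14.5%. Over all 10035 named genes tested, 8.27% were higher and 7.14% lower, with a median log2 difference of -0.03, and the median of the 4 tested members was 1.16. The groups did not overlap for any of the 4, which was also true of 58.2% of all probe sets tested. Nothing is read from these counts, since the members were picked with the same contrast known.

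Of 50 further complement genes, listed by pathway, 35 had a probe set of their own. Of these, 10 were bright enough to be tested. The list was made with earlier results of these data known, so its counts are a description. None of these 10 was called by limma in either direction, 0 higher and 0 lower, where all named genes gave 8.27% and 7.14%. C4a and C4b are on the list of 50 but not among the 10, since their only probe set is shared, and that probe set was called higher as given above. At an unadjusted p under 0.05 by limma, C8g was higher and Masp2 and C4bpb were lower, 1 and 2 of 10, where all probe sets tested gave 13.9% and 14.5%. The median log2 difference of the 10 was -0.06. Another 15 of the 35 were at or below background on all 4 arrays.

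Clusterin (Clu), a soluble inhibitor of the membrane attack complex and a major secreted product of Sertoli cells, had signals of 6072 and 6410 on the cAMP arrays, against 6858 and 7278 on the control arrays. Its log2 difference was -0.18 ± 0.10, and 0.08 after quantile normalization, so no direction is given. Cr1l, the rodent membrane regulator also known as Crry, had 461.7 and 477.3 on the cAMP arrays, against 471.3 and 506 on the control arrays, and the groups overlapped. C1qbp, a mainly mitochondrial protein that binds C1q, differed by -0.05 ± 0.13 on the log2 scale.

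Masp2, the protease of the lectin pathway that does the work of C1s there, had signals of 251.3 and 318.4 on the cAMP arrays, against 339.7 and 477.4 on the control arrays. The log2 difference of -0.49 ± 0.20 did not pass (adjusted p by limma = 0.171), and did so only without control replicate 1 (-0.72, adjusted p = 0.0226). C4bpb, a chain of the protein that binds cleaved C4, had 214.1 and 233.9 on the cAMP arrays, against 485.7 and 295.4 on the control arrays (-0.72 ± 0.23, adjusted p by limma = 0.0879). It passed only without control replicate 2, at -1.07 (adjusted p = 0.00346). C8g, a chain of the membrane attack complex, had 96.8 and 86.4 on the cAMP arrays, against 46.8 and 65.9 on the control arrays (0.58 ± 0.21, adjusted p by limma = 0.117), and passed only without control replicate 2 (0.78, adjusted p = 0.0473). For these 3 genes the groups did not overlap, which was also true of 58.2% of all probe sets tested.

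**Figure D3:**
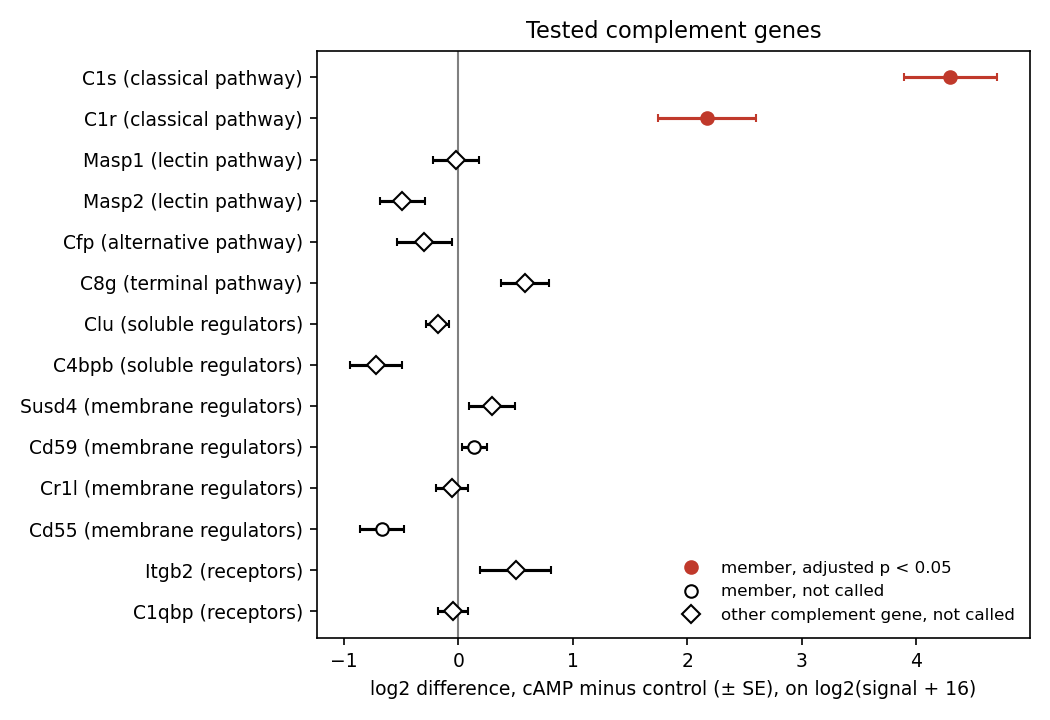
Log2 difference of cAMP minus control on the log2(signal + 16) scale, with its standard error, for the 14 complement genes with a tested probe set of their own, grouped by role. C1s (4.30) and C1r (2.17) are at the top and the other 12 lie between -0.72 and 0.58; the probe sets shared by C4a and C4b (2.02) and by C2 and Cfb (0.63) are not drawn.

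Among 10031 other named genes tested, the 5 whose values over the 4 arrays were nearest to C1s were Ifi27l2b, Lcn2, Pde10a, Lgals3 and Hamp. Nearness was the Euclidean distance between log2 values centred on each gene's own mean, and it was 0.41 for Ifi27l2b and 1.05 for Hamp. Lcn2, an iron-scavenging protein of the acute phase, had signals of 1517 and 2426 on the cAMP arrays, against 187.9 and 63.5 on the control arrays. Ifi27l2b, a member of an interferon-inducible family, had 352.6 and 574.6 on the cAMP arrays, against 24.9 and 4.8 on the control arrays, the last below background. In all 5 genes, as in C1s, cAMP replicate 2 exceeded cAMP replicate 1 and control replicate 1 exceeded control replicate 2. The distance takes in these gaps within a group, so picking the nearest genes favours that order. Hamp, the gene of the iron hormone hepcidin, had 381.3 and 438.6 on the cAMP arrays, against 29.0 and 14.6 on the control arrays. C1r was at a distance of 2.14 from C1s, with 78 genes nearer. With 4 arrays in 2 groups, genes with a large positive difference tend to lie near C1s by this measure.

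**Figure D4:**
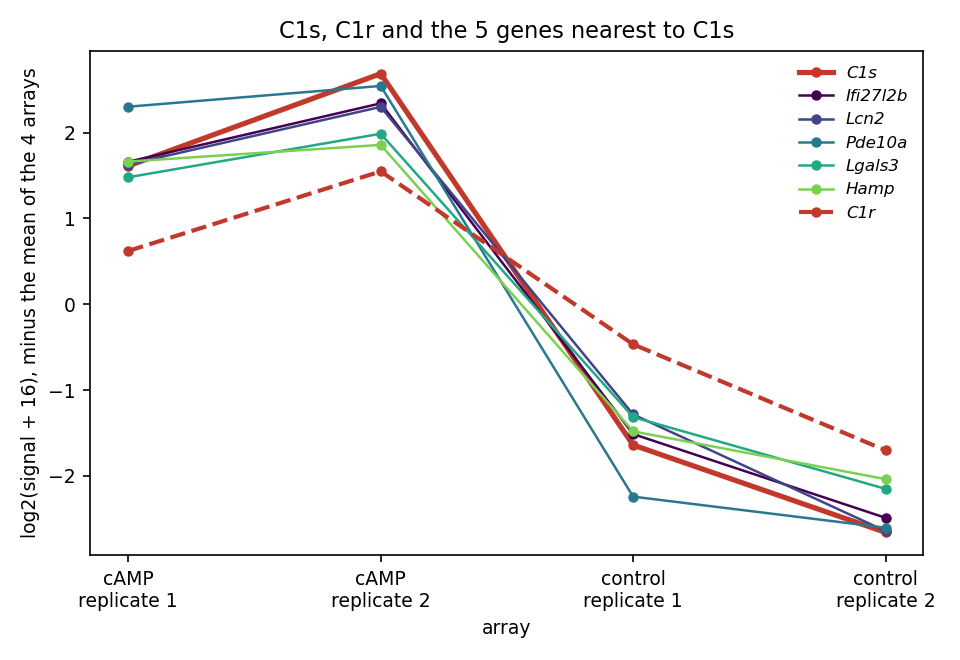
Log2(signal + 16) of C1s, the 5 genes nearest to it and C1r (dashed), each minus its own mean over the 4 arrays, on the 2 cAMP arrays and the 2 control arrays. Lines only join the values of a gene; Ifi27l2b and Lcn2, at distances of 0.41 and 0.53, lie closest to C1s.

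The arrays had been scaled to the same trimmed mean before deposit, 125.04 on each, and between 64.2% and 66.3% of all probe sets were above background. The cAMP arrays correlated with r = 0.984 and the control arrays with r = 0.967 across tested probe sets, which are not independent replicates. All 8 Sertoli cell markers with a probe set were above background on all 4 arrays. Their summed signal was 20920 and 21710 on the cAMP arrays, against 18040 and 18700 on the control arrays. Inha, the inhibin alpha subunit gene, had 4344.6 and 4732.6 on the cAMP arrays, against 951.6 and 1242.8 on the control arrays. Without Inha the sum was 16580 and 16980 on the cAMP arrays, against 17090 and 17450 on the control arrays. Of these 8 markers 3 (Inha, Dhh and Shbg) were higher and 1, Gata4 (-0.94 ± 0.12), was lower by limma. A second, dimmer probe set of Gata4 did not pass (0.12 ± 0.24). Over all named genes tested, 8.27% were higher and 7.14% lower. Of 14 macrophage and leukocyte markers, 5 were tested and 0 of these were called either way by limma, and 6 of the 14 were at or below background throughout, Ptprc, which defines leukocytes, among them. Cd68, a macrophage marker below the filter on dim probe sets, had 28.1 and 45.2 on the cAMP arrays, against 4.1 and 6.2 on the control arrays. Lyz2 and Mrc1, also markers of macrophages, had lower signals on both cAMP arrays than on the control arrays, with log2 differences of -1.05 ± 0.32 and -0.47 ± 0.23 that did not pass. The summed signal of these 14 was 295.8 and 339.4 on the cAMP arrays, against 295.6 and 448.8 on the control arrays.

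Fibroblasts also express C1r and C1s. Of 7 stromal markers 3 were tested, and of these 1 was likewise called higher in cAMP cells and 0 lower. The summed signal of the 7 was 540.5 and 461.8 on the cAMP arrays, against 108 and 122.9 on the control arrays. Decorin (Dcn) was the marker called by limma (log2 difference 4.17 ± 0.30). It had 465.5 and 381.7 on the cAMP arrays, against 1.9 and 17.1 on the control arrays. Col1a1 and Col1a2 did not pass, and Pdgfra, Col3a1, Lum and Dpt were below the filter on dim probe sets. Pdgfra, Col1a1, Col1a2 and Col3a1 were between 9.8 and 24.2 on the cAMP arrays, against 17.0 to 34.6 on the control arrays. Lum and Dpt were below background throughout. Decorin was highest on cAMP replicate 1, where C1s and C1r were lower than on cAMP replicate 2. Of the control arrays it was higher on replicate 2, where C1s and C1r were lower, but its value on control replicate 1 was below background. Peritubular myoid markers had a summed signal of 181.7 and 221.1 on the cAMP arrays, against 614 and 460.8 on the control arrays, and of 5 tested 1 was higher (Des) and 2 lower (Tagln and Synpo2). Leydig cell markers summed to 3459 and 2926 on the cAMP arrays, against 176 and 139 on the control arrays. Star, the cholesterol transporter of steroid synthesis, made up most of that sum in cAMP cells and was higher (5.30 ± 0.21), Cyp11a1 did not pass, and the other 5 were below the filter. Of these Insl3, which defines Leydig cells, was between 7.0 and 14.7 on all 4 arrays. Endothelial markers summed to 114.1 and 125.7 on the cAMP arrays, against 266.5 and 187.7 on the control arrays, and of 3 tested 1, Kdr (-1.23 ± 0.21), was lower. For these marker counts too, the shares over all named genes tested were 8.27% higher and 7.14% lower. The part of stromal, myoid, Leydig or endothelial cells in the result was not tested.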

How the data were processed

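RNA of cultured Sertoli cells was measured on one-colour Affymetrix rat arrays, 2 labelled cAMP and 2 control. The authors deposited linear intensities per probe set, and the submitters' processing notes name GCOS and MAS5 as the tools, without versions. The arrays' number limits the precision. Of 31099 probe sets, 20832 carry 1 gene symbol, 436 several and 9831 none. Symbols were brought up to date through RefSeq (GRCr8), with 20764 matched. From the intensities log2(signal + 16) was computed, with no further scaling. The 57 controls and probe sets with a mean under the 40th percentile, a log2 value of 5.10, were left out of the test. The test was limma 3.58.1 (R 4.3.3, lmFit, eBayes with an intensity trend, two-sided, Benjamini-Hochberg over all 18625 probe sets, threshold 0.05). It was also run on simulated data whose spread was set by intensity alone. Such data do not cover probe sets with a spread far above that of others of like intensity. In the text, called and passed refer to the threshold of 0.05.

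A gene stands for its probe set with the highest mean signal. All members were named, with every other complement gene past the threshold and the 6 brightest that did not pass, and the 5 genes most like the member with the largest difference. Other genes were named after their values were seen. Members and lists were chosen with earlier results of these data known. Cd59b was on the list of further genes too and was counted as the member Cd59. Same-numbered arrays share only a number. Alternatives were other pseudocounts (1 and 64), no filter, quantile or median scaling, no trend, the replicate number as a block and leaving out each array.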

Additional observations from a re-analysis of the deposited data

How the results depend on the processing

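C1s was higher under all 11 alternatives, with adjusted p by limma between 0.000154 and 0.00717. C1r kept its direction under all 11 and passed under 9, with adjusted p between 0.00136 and 0.111. With dim probe sets kept in the test 1 member was higher, and 873 probe sets were higher and 725 lower over the array, against 1358 and 1191. More probe sets were adjusted for there, by construction. Without the intensity trend 1 member, Cd55, was lower. With any 1 array left out, which leaves the spread to the other group's arrays, 1 to 2 members were higher, 0 to 1 of the further complement genes were higher and 0 to 1 lower. Over the array 408 to 2419 probe sets were then higher and 305 to 2371 lower, both lowest without cAMP replicate 1 and highest without control replicate 1. The cause was not tested.

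With the replicate number as a block, 2 members were higher and 0 lower by limma, and 1540 probe sets were higher and 1495 lower. The block changed no call of a member. Deviations of same-numbered arrays correlated with r = 0.163 over the probe sets, and with 2 numbers this does not show pairing. The other members tested kept the direction of their difference under every alternative. Values near 14.2 are limited by background.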

Other observations

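C1r and C1s lie next to each other on rat chromosome 4 in the RefSeq gene table, with C1rl, a related protease gene, beside C1r. Of the 5 protein-coding genes on either side of the pair, 9 of 10 had a probe set and 5 were bright enough to be tested. All named genes tested gave 8.27% higher and 7.14% lower, and of the 5 neighbours tested 1 was higher and 0 lower by limma. That was Lpcat3, a phospholipid-remodelling enzyme next to C1s, with signals of 387.3 and 403.5 on the cAMP arrays, against 214.7 and 179.4 on the control arrays. Its log2 difference of 0.95 ± 0.16 (SE, n = 2 each) had an adjusted p of 0.00813 by limma, lost without cAMP replicate 1 (0.101) and without cAMP replicate 2 (0.11), where the difference itself was 0.98 and 0.93. Over the array the count of higher probe sets was 408 and 427 in these fits, against 1358 with all arrays. Pex5 (-0.13 ± 0.15), Emg1 (0.22 ± 0.19), Phb2 (-0.43 ± 0.13) and Grcc10 (0.35 ± 0.14) did not pass. The macrophage receptor gene Cd163, the fifth gene before C1r, was below background on all 4 arrays. The neighbours were looked up after the values of C1r and C1s had been seen, and the arrays of Lpcat3 do not repeat the gap between cAMP arrays seen in C1s and C1r.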
